A study of Mus musculus with 14 samples.

Results

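The 10 genes described here encode enzymes of glutathione chemistry and detoxification in mouse embryonic stem cells (ESCs) labelled as knockout for the corepressor RCOR2. They were chosen by name, with their knockout (KO) against wild-type (WT) values already known, as 10 of the 25131 rows of the gene count table. They are the glutathione transferases Gsto1, Gstm1, Gstp1, Gsta4 and Gstt1, both subunits of the enzyme that starts glutathione synthesis (Gclc and Gclm), the lipid peroxidase Gpx4, the epoxide hydrolase Ephx2 and the quinone reductase Nqo1. RNA-seq was made from 2 libraries labelled RCOR2 KO and 2 labelled WT, all ESCs of the C57BL/6 background. RCOR2 binding came from chromatin immunoprecipitation (ChIP) through an HA tag in ESCs that express RCOR2-HA, with WT cells and mCherry-expressing cells as negative controls. All cells grew in serum with leukemia inhibitory factor, the kinase inhibitors PD0325901 and CHIR99021 and the thiol reductant 2-mercaptoethanol.

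Glutathione is a tripeptide with a free thiol that cells keep at high concentration as a reducing agent. Glutamate-cysteine ligase, built of a catalytic subunit (Gclc) and a modifier subunit (Gclm), makes its precursor. Transferases attach glutathione to reactive compounds, peroxidases use it to reduce peroxides, and the transcription factor NRF2 (gene Nfe2l2) induces many of these enzymes through antioxidant response elements in DNA. RCOR2 belongs to the CoREST family, whose proteins join histone deacetylases and the demethylase LSD1 in repressor complexes.

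Total counts were 2951498 and 1974865 for KO, against 2368804 and 1286393 for WT. Rcor2 itself was counted 157 and 103 times in the KO libraries and 193 and 107 times in the WT libraries (log2 −0.59, SE 0.23; edgeR, adjusted p = 0.0636). Neither the deleted stretch nor the number of clones is stated in the labels, and the genotype is not checked by this count. The 8 pluripotency markers summed to 3749 and 3764 CPM (counts scaled by TMM to 1000000 per library) in the KO libraries and to 3887 and 3666 CPM in the WT libraries. These sums hold changes in both directions. Of the 8 markers 2 were called, Nanog higher (log2 0.48) and Dppa5a lower (−0.47). Of 8 fibroblast markers 1 reached the minimum level for a test, and its group summed to 11.5 to 19.3 CPM in the KO and 18.1 to 26.7 CPM in WT. The 6 primitive endoderm markers, all below that level, summed to 7.25 and 3.14 CPM in the KO and 1.69 and 5.33 CPM in WT, and Foxa2 had 0 counts in all 4 libraries. The 6 trophoblast markers summed to 143 and 162 CPM in the KO, against 37.9 and 35.0 CPM in WT. Krt8, Krt18 and Gata3 made up most of this, while Cdx2, Elf5 and Hand1 reached 8 counts or fewer per library. The 6 neural markers summed to 19.3 and 46.6 CPM in the KO, against 62.8 and 46.5 CPM in WT, with Neurog2 at 0 in all 4 libraries. The part of such cells in the results below was not tested, and in these bulk libraries fewer cells of a type and less RNA per cell cannot be told apart. Several chromosomes were shifted as a whole, with median log2 fold changes of KO over WT of 0.48 on chromosome 3, 0.92 on chromosome 6, 0.52 on chromosome 8 and −0.49 on chromosome 11, beside −0.02 over all tested genes. Values centred on the chromosome median are therefore also given for the members and pathway genes named on these 4. On chromosome Y the 2 tested genes, named after their values were seen, were both called lower. Eif2s3y was at 0.345 and 0 CPM in the KO libraries, against 28.7 and 22.9 CPM in the WT libraries, and Ddx3y at 0 and 0.523 CPM in the KO libraries, against 8.43 and 15.2 CPM in the WT libraries.

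The sequence before the gene is shown for Gsto1 and Gclm, the members in which an RCOR2 peak covered bases within 250 before the start and outside the annotated gene. The sequences are from RefSeq (GRCm38.p6), read 5′ to 3′ on the plus strand, on which both genes lie. In Gsto1 (chr19:47854723-47854972, 250 bases) the capitals mark the bases under the peak. In Gclm (chr3:122245307-122245486, 180 bases) the peak covered every base, and the capitals mark a match to the core of the antioxidant response element on the other strand.
Gsto1: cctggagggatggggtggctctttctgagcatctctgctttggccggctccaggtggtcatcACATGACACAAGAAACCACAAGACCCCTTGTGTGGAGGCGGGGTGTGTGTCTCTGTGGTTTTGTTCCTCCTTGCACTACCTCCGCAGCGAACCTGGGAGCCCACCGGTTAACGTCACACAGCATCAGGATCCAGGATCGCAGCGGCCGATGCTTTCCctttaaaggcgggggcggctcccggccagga
Gclm: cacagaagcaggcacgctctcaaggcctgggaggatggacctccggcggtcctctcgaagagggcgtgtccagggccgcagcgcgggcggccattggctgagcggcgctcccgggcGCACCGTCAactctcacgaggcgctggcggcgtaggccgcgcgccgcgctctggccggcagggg

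Among the transferases, Gsto1 was several-fold higher in the KO and Gstm1 lower, while Gsta4 overlapped between the groups. Gsto1 (chr19:47854973-47864790, plus strand), an omega-class transferase that also reduces dehydroascorbate, was at 1163 and 1211 CPM in the KO libraries, against 244 and 205 CPM in the WT libraries. Every KO value was far above every WT value, with means of 1187 ± 33.8 CPM in KO cells and 224 ± 27.4 CPM in WT cells (SD, n = 2 each). The log2 fold change of KO over WT was 2.40 (SE 0.15). It ran from 2.28 to 2.55 when each library was left out in turn.

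Gstm1 (chr3:108012250-108017973, minus strand), a mu-class transferase, was at 59.4 and 37.7 CPM in the KO libraries, against 128 and 102 CPM in the WT libraries. The groups did not overlap, and the log2 fold change was −1.24 (SE 0.23). It was −0.95 without KO replicate 2 and −1.62 without KO replicate 1, so its size rested in part on which KO library was used. Gstm1 lies on chromosome 3, where the median of 480 tested genes was 0.48, and centred on that median it was at −1.71.

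Gsta4 (chr9:78191966-78209349), an alpha-class enzyme that conjugates the lipid peroxidation product 4-hydroxynonenal, was at 1199 and 916 CPM in the KO libraries and at 1040 and 862 CPM in the WT libraries. The groups overlapped. Its log2 fold change was 0.15 (SE 0.15), and the sign turned without KO replicate 1 (−0.06). The other transferases were barely counted. Gstp1 (chr19:4035411-4037912, minus strand), of the pi class, had 10 and 8 counts in the KO libraries and 18 and 6 in the WT libraries, a log2 fold change of −0.72 (SE 0.73) that is smaller than its error. It could not be fitted without WT replicate 1. Gstt1 (chr10:75783813-75798584, minus strand), of the theta class, had 4 and 0 counts in the KO libraries and 4 and 3 in the WT libraries, too few to be fitted. A count of 0 in KO replicate 2 allows up to 1.57 CPM.

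Both subunits of glutamate-cysteine ligase overlapped between the groups. Gclc (chr9:77754535-77794489), the catalytic subunit, was at 46.9 and 50.7 CPM in the KO libraries and at 49.3 and 62.5 CPM in the WT libraries. The ranges overlapped, with a log2 fold change of −0.18 (SE 0.26). Gclm (chr3:122245487-122267215, plus strand), the modifier subunit, was at 54.9 and 82.7 CPM in the KO libraries and at 92.7 and 81.5 CPM in the WT libraries. KO replicate 2 lay between the WT values and KO replicate 1 below both, with a log2 fold change of −0.36 (SE 0.23). Centred on chromosome 3, Gclm was at −0.84, and it moved past the threshold there.

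Of the remaining members, Ephx2 stood far lower in the KO. Ephx2 (chr14:66084372-66124522) is the soluble epoxide hydrolase, which opens the epoxides of fatty acids. It was at 6.21 and 2.09 CPM in the KO libraries, from 18 and 4 counts, against 56.9 and 59.4 CPM in the WT libraries, from 135 and 78 counts. No KO value came near a WT value, and the log2 fold change was −3.69 (SE 0.41). Summed over libraries and divided by depth, KO counts were 0.0791 of WT counts (95% interval 0.0486 to 0.123). That interval covers counting error only and leaves out the spread between libraries. The size rests on few KO counts, since the log2 fold change was −4.75 without KO replicate 1 and −3.20 without KO replicate 2.

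Gpx4 (chr10:80047166-80056439, plus strand), the selenium-containing peroxidase that reduces lipid hydroperoxides within membranes, was at 13.5 and 16.2 CPM in the KO libraries and at 20.7 and 25.9 CPM in the WT libraries. The groups did not overlap, but the log2 fold change of −0.64 had an SE of 0.41. Nqo1 (chr8:107388225-107403205, minus strand), which reduces quinones and is a standard NRF2 target, was at 124 and 103 CPM in the KO libraries and at 72.1 and 89.1 CPM in the WT libraries. It did not overlap either, with a log2 fold change of 0.50 (SE 0.21). On chromosome 8, where Nqo1 lies, the 565 tested genes had a median of 0.52, and centred on it Nqo1 was at −0.010.

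**Figure D1:**
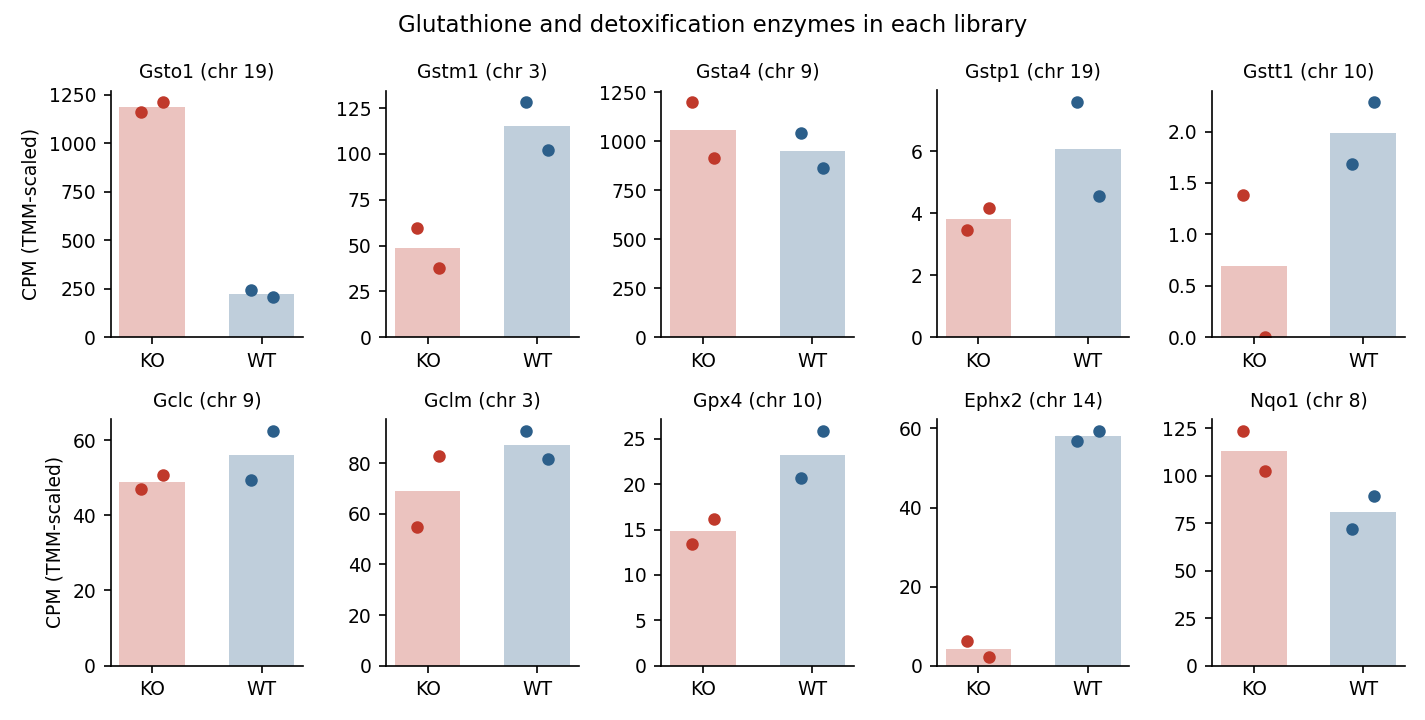
TMM-scaled CPM of the 10 members, with a panel for each gene and its own axis from 0. Points are single libraries and bars the mean of 2, KO in red and WT in blue. Gsto1 reached 1163 and 1211 CPM in the KO libraries against 244 and 205 CPM in the WT libraries, and Ephx2 was at 6.21 and 2.09 CPM in the KO libraries against 56.9 and 59.4 CPM in the WT libraries.

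Of the 9 members that could be fitted, 1 was past the all-gene threshold as higher (Gsto1) and 2 as lower (Gstm1 and Ephx2), in a comparison that called 19.7% of all 10241 tested genes (edgeR, adjusted p under 0.05), 10.4% as higher and 9.3% as lower. The members were chosen with these values known, so nothing is read from that share. All 3 stayed past the threshold with each library left out, with the replicate block and by DESeq2. Libraries of the groups did not overlap for 6 of the 9, where 56.9% of all tested genes showed no overlap. In 2 of these the KO lay above WT (28.1% of all tested genes) and in 4 below (28.8%). The median log2 fold change of the 9 was −0.36, beside −0.02 over all tested genes. The 3 members on the shifted chromosomes 3 and 8 are Gstm1, Gclm and Nqo1. The part of the chromosome shift in their values was not tested beyond the centring given above.

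**Figure D2:**
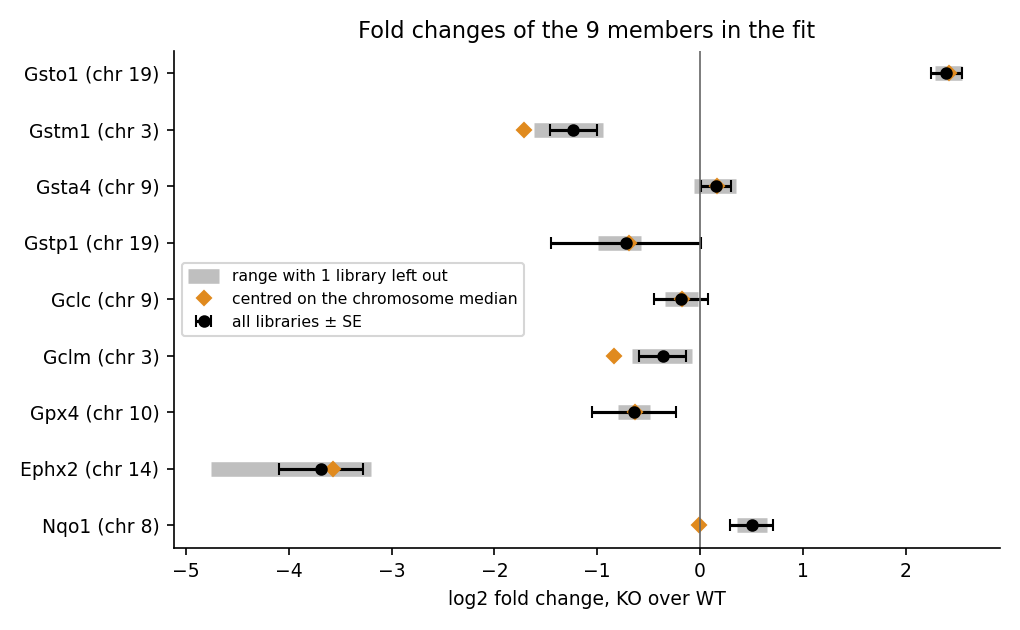
Log2 fold change, KO over WT, of the 9 members in the fit. Black points and bars give the value from all 4 libraries with its SE, grey bars the range with each library left out in turn, and diamonds the value centred on the median of the chromosome. Centring moved Gstm1 to −1.71, Gclm to −0.84 and Nqo1 to −0.010, and left Gsto1 at 2.42 and Ephx2 at −3.57.

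Among the genes around Gsto1 and Ephx2, no tested gene differed as much as they did. The members were chosen with their values known, so this comparison is not a test. The distance of 500 kb used here was chosen after the values were seen, as were the neighbours named. Near Gsto1 there were 5 tested genes, with log2 fold changes of −0.34 to 1.46, and Cfap43 (1.46) was the 1 called. Near Ephx2 there were 6, of −1.85 to 0.25, of which the kinase gene Pbk (−1.01) and the cohesin acetyltransferase gene Esco2 (−0.70) were called lower. Near Gstm1 there were 14, of which Sars (1.05) and Gnai3 (0.54) were called higher and Ahcyl1 (−0.85) and the Gstm1 paralogs Gstm3 and Gstm5 lower. These values are not centred, and the median of chromosome 3, on which these genes lie, was 0.48.

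The transferase paralogs of the members showed both directions. Of 25 other transferases and related membrane enzymes 14 were tested. Of these 3 rose, 2 fell and 9 did not pass the test, with a median log2 fold change of 0.18. The share called was 35.7%, beside 19.7% of all tested genes. Ptges, a glutathione-dependent prostaglandin E synthase, rose by 2.97 on the log2 scale (SE 0.40; edgeR, adjusted p = 6.54e-08), at 47.9 ± 7.72 CPM in KO cells and 6.17 ± 0.974 CPM in WT cells (SD, n = 2 each). Mgst3, a microsomal transferase, rose by 1.74 (SE 0.43; edgeR, adjusted p = 0.00215), a call lost without KO replicate 2 (1.44). Hpgds, the hematopoietic prostaglandin D synthase, had 18 and 11 counts in the KO libraries and 0 and 2 in the WT libraries. The ratio of its summed counts per depth was 11.1 (95% interval 2.81 to 96.1, for counting error only). Its call was lost without KO replicate 2 or WT replicate 1. Centred on chromosome 6 its log2 fold change was 2.40, and it was not called.

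The mu-class neighbours of Gstm1 were also uneven. Gstm5 was at 5.82 ± 1.39 CPM in KO cells and 19.7 ± 9.91 CPM in WT cells (SD, n = 2 each), or −1.73 on the log2 scale (SE 0.56; edgeR, adjusted p = 0.0202). Gstm3 had 0 and 4 counts in the KO libraries and 16 and 10 in the WT libraries (edgeR, adjusted p = 0.0208). Both calls were lost without KO replicate 1 or WT replicate 2. Centred on chromosome 3, Gstm5 was at −2.20 and Gstm3 at −3.40, both still called. Gstm4, the next protein-coding gene to the Gstm1 peak, was at 24.4 ± 3.50 CPM in KO cells and 11.6 ± 0.265 CPM in WT cells, with no overlap. Its log2 fold change of 1.07 (SE 0.42) did not pass the test (edgeR, adjusted p = 0.0638), and it was 0.60 when centred. Gstm6 was at −0.70 (SE 0.65), or −1.17 when centred, and was not called, and Gstm7 had at most 2 counts in a library and was not tested. Gstm4, Gstm6 and Gstm7 were chosen after their values were seen. Gstm2 was at 24.9 ± 1.04 CPM in KO cells and 20.5 ± 2.03 CPM in WT cells, with a log2 fold change of 0.27 (SE 0.37) that was −0.21 centred on chromosome 3. These genes are similar in sequence, and the sources used here do not say how the authors' counting treated reads shared between them, so the split between them is uncertain.

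Counts of the closest transferase relatives of the other member transferases were low or overlapped between groups. Gsto2, which lies beside Gsto1, had 4 and 2 counts in the KO libraries and 2 and 1 in the WT libraries. Gstp2 had 5 and 0 counts in the KO libraries and 2 and 3 in the WT libraries, and Gstp3 had 10 and 2 counts in the KO libraries and 6 and 1 in the WT libraries. None of these 3 was tested. The sources used here also do not say how reads shared between Gstp1, Gstp2 and Gstp3 were counted, so their low counts are uncertain. Gstt2 (0.17, SE 0.68), Gstt3 (−0.55, SE 0.66) and Gsta3 (0.04, SE 0.57) had log2 fold changes smaller than their errors.

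Of 21 genes of glutathione synthesis and turnover 16 were tested, of which 6 rose, 1 fell and 9 did not pass the test, with a median of 0.04. Over all tested genes 10.4% were called higher and 9.3% lower. After centring, 6 genes of the list rose and 3 fell, in a fit that called 13% of all tested genes. Cth, which releases cysteine from cystathionine, rose by 1.71 (SE 0.22; edgeR, adjusted p = 1e-08), at 148 ± 0.864 CPM in KO cells and 45.2 ± 0.406 CPM in WT cells (SD, n = 2 each). It stayed called at 1.23 when centred on chromosome 3. The glutamine transporter Slc1a5 rose by 0.80 (SE 0.17; edgeR, adjusted p = 0.00047), and both calls held with each library left out, the 2 of the 6 that did. Cbs, the enzyme before Cth, was at 1.14 (SE 0.38), and Chac1, which degrades glutathione, at 2.33 (SE 0.84). Hagh, of the glyoxalase pathway, was at −0.92 (SE 0.28). The calls of Cbs and Hagh did not survive leaving out either KO library or WT replicate 2, and that of Chac1 either KO library or WT replicate 1. Gss, which completes glutathione, was at 0.58 (SE 0.26) and Gsr, which reduces it again, at −0.22 (SE 0.20), and neither passed the test. Centred on chromosome 8, Gsr was at −0.73 and was called. Ggct, which breaks down gamma-glutamyl dipeptides and was named after its value was seen, was at −0.32 (SE 0.19), and at −1.24 and called when centred on chromosome 6.

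Of 28 genes of the peroxidases and the thioredoxin system 25 were tested. Of these 2 rose, 3 fell and 20 did not pass the test, with a median of −0.04. The share called was 20%, near the 19.7% of all tested genes. Gpx2, a glutathione peroxidase of epithelia, was at 41.8 ± 4.35 CPM in KO cells and 13.0 ± 1.05 CPM in WT cells (SD, n = 2 each), a rise of 1.70 (SE 0.36; edgeR, adjusted p = 0.000305). Prdx2, a cytosolic peroxiredoxin, rose by 0.85 (SE 0.16; edgeR, adjusted p = 5.74e-05) but was at 0.33 and no longer called centred on chromosome 8. Txnip, the thioredoxin-binding protein, fell by 1.62 (SE 0.26; edgeR, adjusted p = 3.52e-06), and was at −2.09 when centred on chromosome 3. Those 3 calls held with each library left out. The secreted peroxidase Gpx3 was at −1.45 (SE 0.33), a call lost without KO replicate 2, and at −0.97 and still called when centred on chromosome 11. Mitochondrial Sod2 was at −0.48 (SE 0.15), a call lost without either KO library. Gpx1, the main cytosolic glutathione peroxidase, was at 2327 ± 44.3 CPM in KO cells and 1849 ± 463 CPM in WT cells (SD, n = 2 each) and was not called (0.33, SE 0.15). It was called without WT replicate 1 (0.63).

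Neither NRF2 nor its inhibitor passed the test. Nfe2l2 was at 146 ± 3.78 CPM in KO cells and 179 ± 34.0 CPM in WT cells (SD, n = 2 each), with a log2 fold change of −0.30 (SE 0.18). Keap1, which holds NRF2 back, was at 0.31 (SE 0.23). Of 25 regulators and targets of NRF2 23 were tested. Of these 5 rose, 2 fell and 16 did not pass the test, with a median of −0.01. The share called was 30.4%, beside 19.7% of all tested genes. Hmox1, the heme oxygenase, rose by 1.56 (SE 0.36; edgeR, adjusted p = 0.000964) and stayed called at 1.05 centred on chromosome 8. The NADPH-producing enzymes Me1 (1.33, SE 0.35) and Pgd (0.66, SE 0.17) lost their calls without KO replicate 1, and the ferritin chain Ftl1 (0.51, SE 0.14) without either KO library. Nfe2l1, a relative of NRF2, was at −0.62 (SE 0.16) and Mafg, a DNA-binding partner, at −0.61 (SE 0.22). Both lie on chromosome 11, and when centred Nfe2l1 was at −0.13 and Mafg at −0.12, neither called. Nfe2l1 also lost its call without either KO library, and Mafg without KO replicate 2 or WT replicate 1.

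Of 33 epoxide hydrolases and other detoxification genes 21 were tested. Of these 4 rose, 2 fell and 15 did not pass the test, with a median of −0.06. The share called was 28.6%, beside 19.7% of all tested genes. Ephx1, the microsomal epoxide hydrolase, was at 32.4 ± 10.3 CPM in KO cells and 44.3 ± 6.56 CPM in WT cells (SD, n = 2 each) and was not called (−0.44, SE 0.30), nor was Nqo2 (−0.57, SE 0.37). The aldo-keto reductase Akr1b8 rose by 2.61 (SE 0.52; edgeR, adjusted p = 0.000121), at 69 and 54 counts in the KO libraries against 13 and 3 in the WT libraries, and held its call with each library left out. It was at 1.70 centred on chromosome 6. The drug efflux pump gene Abcb1a was at 1.43 (SE 0.41), a call lost without KO replicate 2. Its neighbour Abcb1b was at 0.72 (SE 0.25), a call lost when WT replicate 1 or either KO library was left out. The aldehyde dehydrogenase gene Aldh2 was at 0.79 (SE 0.21), a call lost without KO replicate 1. The carbonyl reductase Cbr3 was at −1.26 (SE 0.44), a call lost when centred and when WT replicate 1 or either KO library was left out.

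In the chemistry that Gpx4 serves, 13 of 17 genes of selenoprotein synthesis and lipid peroxidation were tested. Of these 4 rose, 2 fell and 7 did not pass the test, with a median of 0.34. The share called was 46.2%, beside 19.7% of all tested genes. Lpcat3, which loads polyunsaturated fatty acids onto phospholipids, rose by 2.20 (SE 0.18; edgeR, adjusted p = 1.01e-14), at 314 ± 3.07 CPM in KO cells and 67.6 ± 10.5 CPM in WT cells (SD, n = 2 each). Centred on chromosome 6 it was at 1.28 and still called. Acsl4, which activates such fatty acids, was at −1.12 (SE 0.36), a call lost without KO replicate 2 or WT replicate 2. The selenocysteine elongation factor Eefsec (0.88, SE 0.24) was at −0.034 when centred on chromosome 6, and lost its call there and without KO replicate 2 or WT replicate 1. Trnau1ap was at 0.61 (SE 0.19) and the selenocysteine insertion factor Secisbp2 at −0.75 (SE 0.23). Each lost its call when WT replicate 1 or either KO library was left out. Secisbp2 also lost its call when centred (−0.60). Dhodh, of pyrimidine synthesis, was at 1.19 (SE 0.30), a call lost without KO replicate 2 and when centred on chromosome 8 (0.67).

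Over the 6 lists 24 genes rose and 12 fell of 112 tested, with a median log2 fold change of 0.04. The share called was 32.1%, beside 19.7% of all tested genes. The lists were chosen with earlier results of these data known, so nothing is read from this share or from those of the single lists. With chromosomes centred 20 list genes rose and 9 fell. Over all 10241 tested genes 643 rose and 685 fell in that fit, or 13% called. Most of the 36 calls did not hold with each library left out, and no such count was made over all tested genes. Without KO replicate 1 the lists held 18 calls, and without KO replicate 2 they held 15. DESeq2 called 21 list genes. Among the calls named above, it did not make those of Hpgds, Gstm3, Gstm5, Chac1, Cbs, Hagh, Mafg, Abcb1a, Abcb1b, Cbr3, Trnau1ap, Acsl4 and Secisbp2.

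**Figure D3:**
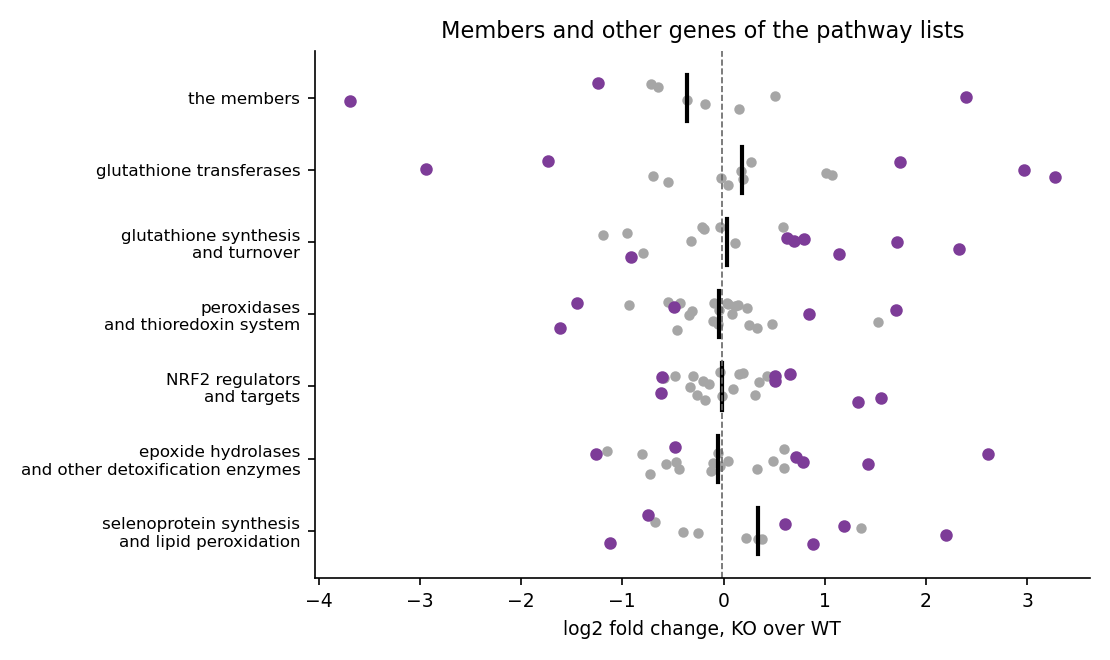
Log2 fold change, KO over WT, of the tested members (top) and of the tested genes of the 6 lists, a point per gene. Purple points passed the test across all genes, black bars are list medians, and the dashed line is the median of all tested genes (−0.02). Each list holds genes on both sides of that line.

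RCOR2 peaks lay near nearly all members, as they did near most genes. Of the 10 members 9 had at least 1 peak summit within 10 kb of the gene interval, and of all tested genes with a position 88.7% had. The list is 1 call on merged ChIP libraries, so its values carry no replicate error, and its fold and −log10 q are the authors'. The members had 38 such peaks, with a median −log10 q of 4.31 beside 5.08 over all RCOR2 peaks, and 11 of the 38 lay nearer to another protein-coding gene. The median number per gene was 3.5 for the members and 2 for tested genes. With only peaks of a −log10 q of at least 5, both medians were 1. With a fold of at least 5 the median was 0.5 for the members and 1 for tested genes.

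Gclm carried by far the strongest of them. A peak of 2940 bp at chr3:122243760-122246699 spanned its start, 9.60-fold with a −log10 q of 31.1, above 98.1% of the list. Its summit lay 345 bp after the start site. A second strong peak at chr3:122269694-122270707, 9.41-fold with a −log10 q of 38.7, lay 2892 bp past the end of the gene. The third wide one, at chr3:122273852-122274939 (7.60-fold, 21.7), was 85 bp from the next gene, Dnttip2. These were the 3 peaks of at least 1 kb near any member. Gclm had 11 peaks in all, of which 5 were nearer to Dnttip2.

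The 3 members with the largest differences in RNA had weaker peaks than the wide ones near Gclm. By −log10 q, the strongest peak of Ephx2 was above 78.5% of the list. That of Gsto1 was above 65.0% and that of Gstm1 above 22.3%. Gsto1 had peaks 77 bp (4.38-fold, −log10 q of 4.46) and 371 bp (5.07-fold, 6.64) before its start, the nearer of them the stretch in capitals above, and a peak past its end that lies inside Gsto2 (4.61-fold, 5.16). Gstm1 had 1 peak, at chr3:108017582-108017839, with its summit 138 bp after the downstream start (4.15-fold, 3.79). Ephx2 had 2 peaks inside the gene interval, at chr14:66120002-66120348 (5.75-fold, 9.00) and chr14:66123670-66123949 (4.61-fold, 5.16), with summits 4291 and 686 bp from its nearer end.

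The other members had mostly weak peaks. Gclc had 4, the strongest 1085 bp outside the interval (6.44-fold, −log10 q of 10.7) and another 241 bp inside an end (4.15-fold, 3.79). Gsta4 had 4, of up to 4.61-fold. Gpx4 had 6, of which the strongest (7.58-fold, 15.4) lay 350 bp from the neighbouring gene Polr2e. Gstp1 had 6, of which 1 lay 146 bp after its start (4.15-fold, 3.79) and 4 were nearer to Gstp2. Nqo1 had 1, 426 bp before its start (3.46-fold, 2.62). Gstt1 had none within 10 kb, and its nearest summit was 10270 bp away. Of the 13 TALE 1 and 4 TALE 2 peaks, pulled down with the DNA-binding proteins aimed at the Nanog locus, 0 lay within 10 kb of a member.

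**Figure D4:**
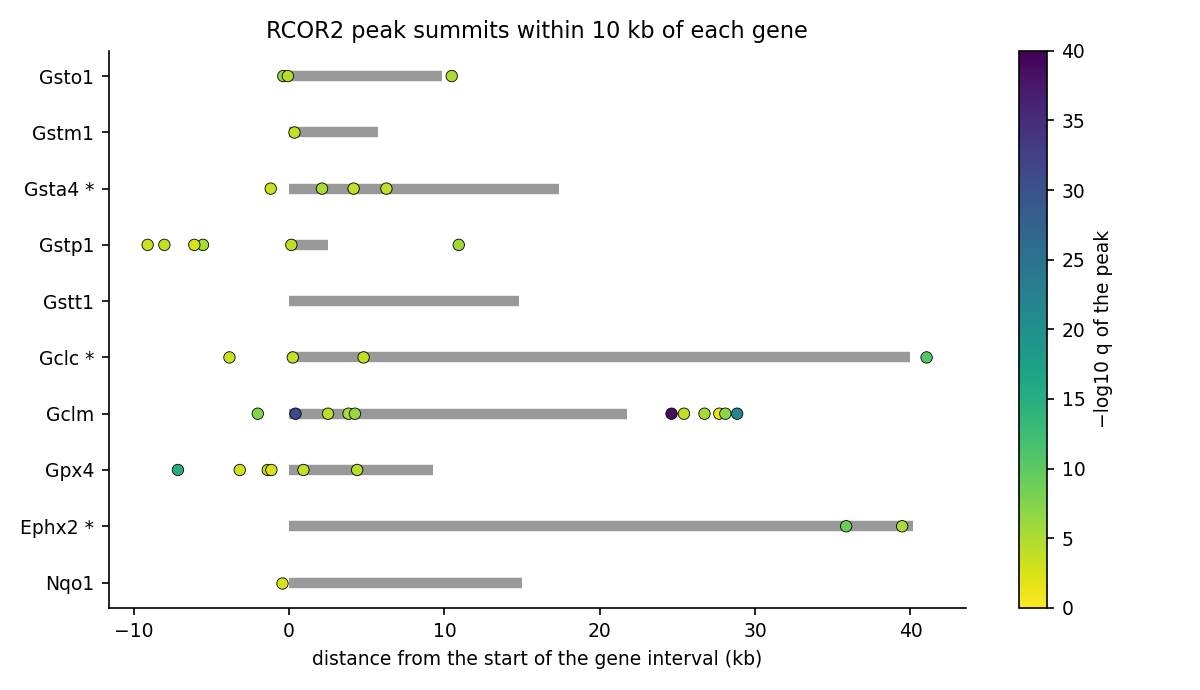
RCOR2 peak summits within 10 kb of each member, by distance in kb from the start of the gene interval (grey bar), coloured by −log10 q. Genes are drawn 5′ to 3′ from left to right, except those marked with an asterisk (Gsta4, Gclc, Ephx2), which are drawn by coordinate with no strand assigned. The darkest points, at Gclm, have a −log10 q of 31.1 and 38.7.

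Promoter windows, from 250 bases before to 50 after a RefSeq start, were found for 7 of the 10 members, in 11 windows. The core of the antioxidant response element was searched as TGACNNNGC on both strands. Gclm held it, on the reverse strand as GCACCGTCA, 134 bases before the start, inside the wide RCOR2 peak. The windows of Gsto1, Gstm1, Gstp1, Gstt1, Gpx4 and Nqo1 did not hold these letters, and 12.4% of all 32851 windows did. Other forms of the element, and elements outside the windows, were not searched for, so a window without a match does not show their absence. The Gclm window was also the richest in G and C, at 79.7% with a ratio of observed to expected CpG of 1.01, where the medians over all windows were 52.7% and 0.384. The window of Nqo1 had a CpG ratio of 0.249, and that of Gsto1 0.583.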

How the data were processed

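The authors deposited raw read counts per gene symbol, and per the submitters' processing notes Trimmomatic 0.36, STAR 2.5.2b, SAMtools 1.8, Subread and featureCounts were used with the builds GRCm38 and mm10, in no stated order. The sources used here do not say whether strand or molecular identifiers were used. The list of RCOR2 peaks gives a fold enrichment over control, a ratio, and a −log10 q per peak, both as deposited by the authors. The notes name MACS2 2.1.1.20160309, and the control that entered the call is not named there. Its 53366 peaks on chromosomes were used.

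KO and WT counts were compared in R 4.3.3 with edgeR 4.0.16 (filterByExpr, TMM, quasi-likelihood test, KO over WT, two-sided, Benjamini-Hochberg over 10241 tested genes, threshold 0.05). The SE is the absolute fold change over the root of F. CPM are per 1000000 TMM-scaled counts. Gene intervals came from RefSeq GRCm38.p6, which placed 25027 of 25131 rows, and start sites from its promoter table. In the centred fit, the median log2 fold change of each chromosome was subtracted as an offset. Intervals for ratios of summed counts are exact, at 95%, and they and the limit for a count of 0 (3 counts) cover counting error only.

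The members, lists and tests were chosen with earlier results of these data known, so the members' KO against WT values are given without p-values. Of each list the text names up to 4 called genes per direction with the largest change, and, whatever their values, Gstp2, Gstp3, Gstm2, Gstm5, Gstt2, Gstt3, Gsta3, Gsto2, Gpx1, Ephx1, Nqo2, Gss, Gsr, Nfe2l2 and Keap1. Genes outside this rule are marked as chosen after their values were seen. A gene that this rule names is not reported here. Separate cultures are not stated for the replicates, and p-values then reflect only how these 4 libraries vary, which may be technical. Replicates differed by more than sampling noise (chi-square per degree of freedom of 4.22 in KO and 4.78 in WT). The fit was tested on simulated counts. Alternatives were DESeq2 1.42.0, its size factors in edgeR, no filter, a replicate block, chromosome centring, each library left out, and other peak thresholds and windows.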

Additional observations from a re-analysis of the deposited data

How the results depend on the processing

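The 3 members past the threshold were the same number under each alternative run, except that centring on chromosomes gave 4. With the replicate block, all-gene calls were 1822 in place of 2014 and list calls 36. It changed no call of a member or of a gene named by the rule. The replicate numbers do not pair the libraries by the labels, and the deviations of same-numbered libraries correlated at −0.05. DESeq2 called 1156 genes and 21 list genes, and centring left 1328 genes. With each library left out the calls ran from 1035 to 1699 over all genes and from 15 to 34 in the lists. With a fold of at least 5, 5 members had an RCOR2 peak within 10 kb in place of 9, and 57.0% of tested genes in place of 88.7%. With a −log10 q of at least 5, 7 members and 70.0% of tested genes had such a peak. Signs turned on centring for Nqo1 (−0.010), Eefsec (−0.034) and Gstm2 (−0.21). With libraries left out they turned for Gsta4 (−0.056 to 0.35), Gstt2 (−0.27 to 1.12), Gstt3 (−1.36 to 1.04), Gsta3 (−0.25 to 0.54), Gsr (−0.58 to 0.24) and Keap1 (−0.12 to 0.63), none of which passed the test with all 4 libraries. Of the other results of the members and the genes named by the rule, 388 kept direction and side of the threshold, 72 lost a call and 3 gained it. Genes marked as chosen after their values were seen, such as Ggct, are not in these numbers. Gstp1 and Gstm3 had no fit without WT replicate 1, nor Hpgds without KO replicate 1. The cause was not tested. At a depth of 1286393 to 2951498 counts Gstp1 and Gstt1 were barely counted, and the part of depth in this was not tested.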
